A study of Mus musculus with 2 samples.

Results

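Arntl, Clock, Npas2, Per1, Per2, Per3, Cry1, Cry2, Nr1d1 and Nr1d2 are the core genes of the circadian clock, and all 10 were found by symbol among the 27998 genes counted in nuclei of regenerating mouse liver. They were chosen by name after their counts had been seen to differ between the libraries of this series, so the HKO and WT levels are a description and no test of that difference is made. The livers came from 12-week-old C57BL/6 mice 48 h after PHx, partial hepatectomy, in which lobes are removed and the remaining liver regrows. The series set Sox9f/f mice, whose Sox9 gene carries loxP sites, against mice named Sox9HKO. The libraries are titled WT and HKO, and WT is read here as the Sox9f/f group. The abbreviation HKO is not spelt out, and neither the Cre driver nor the number of animals behind a library is given. There was 1 library per group, so no difference between HKO and WT has a replicate check and no p-value is given. The labels do not state the time of day at which the livers were taken. Genotype, animal, library and time of collection therefore cannot be told apart in any comparison of HKO with WT.

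The circadian clock is a transcriptional feedback loop that runs in nearly every cell of the body, hepatocytes included. The proteins of Arntl (also called Bmal1) and Clock, or its relative Npas2, bind E-box elements as a pair and drive transcription of the Per and Cry genes, whose proteins then inhibit that pair. In a second loop the same pair drives Nr1d1 and Nr1d2, which encode the repressors REV-ERB alpha and beta and act on Arntl through ROR response elements (ROREs). In liver the transcripts of these genes are known to vary over the day, with Arntl and the Per genes at their highest at different times.

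Nuclear RNA was counted as unique molecular identifiers (UMIs) by 3' droplet sequencing. HKO held 61123904 UMIs in 14912 barcodes and WT 64609301 in 14701. After filtering, 14902 HKO and 14515 WT nuclei remained, with median depths of 3285 and 3423 UMIs, and 70 barcode sequences occurred in both libraries. Marker genes gave 8688 HKO and 11446 WT hepatocyte-like nuclei, and endothelial-like, macrophage-like, stellate-like and T/NK-like (T and natural killer cell) nuclei in smaller numbers. Of the large clusters, the stellate-like cluster 4 held nuclei of both libraries (1164 HKO and 639 WT), and the hepatocyte-like, endothelial-like and macrophage-like clusters were mostly of 1 library. Hepatocyte-like nuclei lay mainly in clusters 0, 9 and 11 in HKO and in clusters 1, 2, 8 and 10 in WT. Endothelial-like nuclei lay mainly in clusters 3 (HKO) and 6 (WT), and macrophage-like nuclei in clusters 5 (HKO) and 7 (WT). Summed over hepatocyte-like nuclei, Sox9 stood at 5.75 CPM (UMIs per 1000000 UMIs of the class) in HKO, from 219 UMIs, and at 11.2 CPM in WT, from 543. In endothelial-like nuclei it stood at 5.79 and 8.23 CPM, and the labels do not say which part of Sox9 is removed.

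Promoter windows in RefSeq (GRCm38.p6, 250 bases before to 50 after a transcript start) were available for 9 of the 10 genes, 13 windows in all. They were searched on both strands for 5 short elements: the E-box CACGTG, the E-box-like CACGTT, the D-box TTATGTAA, the RORE core TAGGTCA or TGGGTCA, and the cAMP response element TGACGTCA. No element contains another. Per1, Per3 and Cry1 are shown because their transcripts were higher in HKO and a window of each holds an E-box or a D-box, letters known to be read by the clock. The 250 bases before the start are printed 5′ to 3′ along the gene's strand, with the matches in capitals.
Per1, chr11:69098699-69098948, plus strand: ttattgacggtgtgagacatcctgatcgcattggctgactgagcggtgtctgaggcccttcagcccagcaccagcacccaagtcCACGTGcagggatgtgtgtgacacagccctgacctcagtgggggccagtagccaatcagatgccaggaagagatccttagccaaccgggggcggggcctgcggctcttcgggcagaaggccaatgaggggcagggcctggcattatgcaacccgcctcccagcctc
Per3, chr4:151044666-151044915, minus strand: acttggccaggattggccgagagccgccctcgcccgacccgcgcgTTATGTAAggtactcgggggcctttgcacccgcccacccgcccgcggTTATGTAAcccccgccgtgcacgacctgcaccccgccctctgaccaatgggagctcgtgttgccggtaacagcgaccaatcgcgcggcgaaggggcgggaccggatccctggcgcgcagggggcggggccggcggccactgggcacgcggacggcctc
Cry1, chr10:85185055-85185304, minus strand: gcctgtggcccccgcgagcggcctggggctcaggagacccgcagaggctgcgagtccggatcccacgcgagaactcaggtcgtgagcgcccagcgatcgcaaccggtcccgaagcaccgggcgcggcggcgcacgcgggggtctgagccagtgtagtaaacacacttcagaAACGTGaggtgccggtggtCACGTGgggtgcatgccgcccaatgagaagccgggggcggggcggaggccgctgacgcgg
The E-box of Per1, found in 1 of its 2 windows, begins 166 bases before the start and that of Cry1 60 bases before it. Cry1 also holds an E-box-like match 79 bases before the start, written AACGTG because it lies on the other strand. The D-boxes of Per3 begin 205 and 158 bases before the start.

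Shorter stretches show the matches of the other genes, again with the element in capitals.
Cry2, chr2:92434219-92434246, minus strand: cacatggtgggAACGTGagggggcggag
Nr1d1, chr11:98775389-98775416, minus strand: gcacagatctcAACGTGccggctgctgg
Arntl, chr7:113207530-113207558, plus strand: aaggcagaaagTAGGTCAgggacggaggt
Cry2 and Nr1d1 carry an E-box-like match, 166 and 28 bases before the start, and Arntl a RORE core beginning at base 31 of the transcript in 1 of its 2 windows. Over all 32851 windows of the table, 7.15% held the E-box, 4.68% the E-box-like letters, 0.938% the D-box, 6.45% the RORE core and 1.79% the cAMP response element. None of the 13 windows held the cAMP response element. The windows of Clock, Npas2 and Nr1d2 held none of the 5 elements. A match describes letters in a window and not a bound site.

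In hepatocyte-like nuclei the activators were lower in HKO than in WT, Arntl most among those above the expression floor, and the repressors of the Per and Cry families were higher. Arntl (ENSMUSG00000055116, chr7:113207465-113314126, plus strand, GRCm38) stood at 31.6 CPM in HKO (29.8 to 33.4, 1203 UMIs) and at 84.5 CPM in WT (81.9 to 87.1, 4092 UMIs). Arntl was thus 2.68-fold lower in HKO (95% interval of the fold 2.51 to 2.86). These and all later intervals are exact, at 95%, and cover counting error only, not differences between livers. Clock (ENSMUSG00000029238, chr5:76209868-76304792, minus strand), the usual partner of Arntl, stood at 153 CPM in HKO and at 173 in WT, 1.13-fold lower (1.09 to 1.17). Npas2 (ENSMUSG00000026077, chr1:39193731-39363236, plus strand), which can replace Clock, stood at 2.62 CPM in HKO (100 UMIs) and at 10.4 CPM in WT (505 UMIs). The fold of Npas2, 3.97 lower in HKO, rests on few UMIs per nucleus, and its mean lay under the floor of 10 CPM used for calls. The intervals of HKO and WT did not overlap for any of the 3 genes, Clock with its 1.13-fold difference included. The share of all genes without overlap was not counted, so this is not read as a trait of these 3.

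The Per genes, which encode the PERIOD repressors, were all higher in HKO. Per1 (ENSMUSG00000020893, chr11:69095217-69109960, plus strand) stood at 71.2 CPM in HKO (68.5 to 73.9, 2714 UMIs) and at 7.90 CPM in WT (7.13 to 8.74, 383 UMIs). Per1 was 9.01-fold higher (8.09 to 10.1), the largest fold of the 10 genes, and it passed the floor only through its HKO value. Per2 (ENSMUSG00000055866, chr1:91415982-91459324, minus strand) stood at 104 CPM in HKO (3972 UMIs) and at 20.9 CPM in WT (1012 UMIs), 4.99-fold higher (4.66 to 5.35). Per3 (ENSMUSG00000028957, chr4:151003652-151044665, minus strand), which is largely dispensable for rhythms in mice, stood at 48.4 CPM in HKO and at 18.1 in WT, 2.68-fold higher (2.47 to 2.91). Per3 lies within the annotated span of Camta1 on the same strand, and Camta1 stood at 53.1 CPM in both libraries.

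The cryptochrome genes Cry1 and Cry2, whose proteins join PERIOD in the inhibitory complex, were higher in HKO by smaller folds. Cry1 (ENSMUSG00000020038, chr10:85131700-85185064, minus strand) stood at 22.3 CPM in HKO and at 12.1 in WT, 1.85-fold higher (1.66 to 2.05). Cry2 (ENSMUSG00000068742, chr2:92403646-92434043, minus strand) stood at 92.8 CPM in HKO and at 42.1 in WT, 2.20-fold higher (2.09 to 2.33). The REV-ERB genes went opposite ways in CPM, Nr1d2 by a small fold. Nr1d1 (ENSMUSG00000020889, chr11:98767932-98775333, minus strand) stood at 13.6 CPM in HKO (518 UMIs) and at 27.6 CPM in WT (1336 UMIs), 2.03-fold lower (1.83 to 2.25). Nr1d2 (ENSMUSG00000021775, chr14:18204054-18239127, minus strand) stood at 124 CPM in HKO and at 94.6 in WT, 1.31-fold higher (1.26 to 1.36). Nr1d1 overlaps Thra, a thyroid hormone receptor gene, over 1075 bases on the opposite strand. Thra stood at 8.50 CPM in HKO and at 10.1 in WT.

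**Figure D1:**
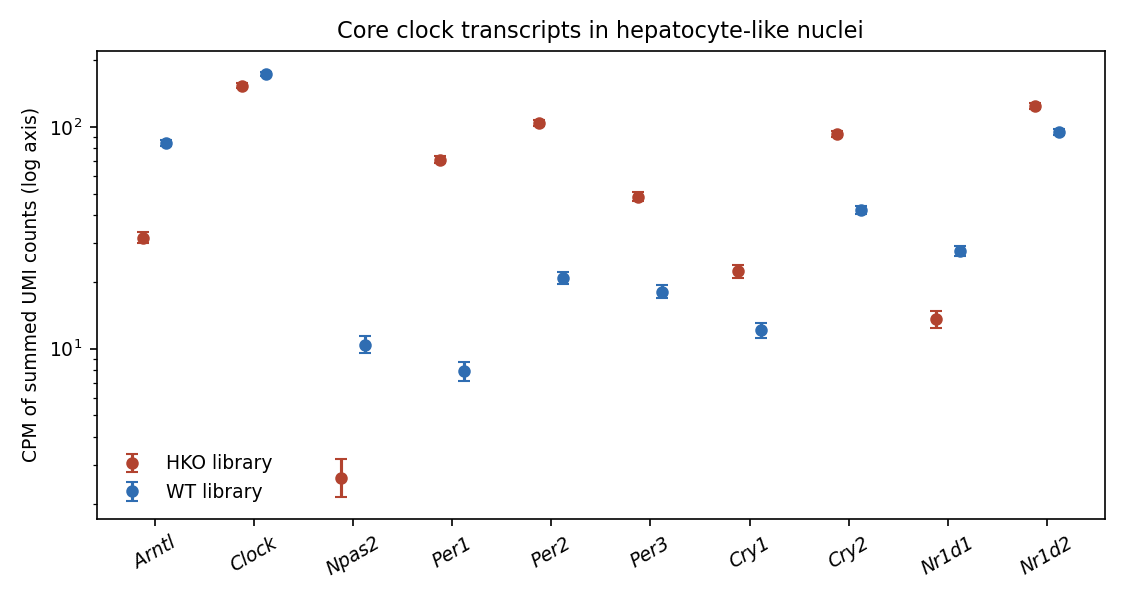
Level of each of the 10 clock genes in hepatocyte-like nuclei (CPM, log axis) in the HKO and WT libraries, with exact 95% Poisson intervals for counting error. Per1, at 71.2 against 7.90 CPM, shows the widest gap upwards, and Arntl, at 31.6 against 84.5 CPM, lies lower in HKO.

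Ratios were also set on a log2 scale after adding 0.5 CPM, and a gene counted as higher or lower in HKO past a log2 ratio of 1 in size. Of the 9 clock genes whose mean reached 10 CPM, 4 were higher (Per1 3.09, Per2 2.29, Per3 1.40, Cry2 1.13) and 1 was lower (Arntl -1.41). Among all 8405 genes measured in these nuclei, 3.18% were higher and 4.88% lower, and 8.05% were past the size either way. The median log2 ratio was 0.86 over the 9 clock genes and 0.19 over all genes. These genes were picked for this difference, so their count against that background describes the choice. Nr1d1 (-0.99) lay just inside the size and Cry1 (0.86) below it. Only 10 genes had a ratio above that of Per1, which was the 11th of 8405 from the top, while Per2 was the 35th and Arntl the 191st from the bottom. The log2 ratio of Nr1d2, 0.39, was common: 2197 of the 8405 genes, itself included, had one at least as high.

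Other scalings moved the calls of genes near the size. Median ratio size factors and TMM factors lowered all log2 ratios by 0.14 and 0.13. Under them Cry2 came to 0.988 and 0.9995, both short of the size, and Nr1d1 to -1.14 and -1.12, past it. Of all genes, 267 higher and 410 lower in CPM became 202 and 517 with median ratio size factors, and 206 and 503 with TMM. The other members kept their direction and their side under both scalings. Hepatocyte-like nuclei held a median mitochondrial share of 0.0746% of UMIs in HKO and 0.311% in WT. In nuclei of both libraries with a share of 0.1 to 0.3% (2397 HKO and 4732 WT nuclei), the log2 ratio of Per1 was 2.95, that of Per2 2.18, that of Arntl -1.53 and that of Nr1d1 -1.22. Over all hepatocyte-like nuclei these log2 ratios were 3.09, 2.29, -1.41 and -0.99. The shares of HKO and WT nuclei can still differ within that range, and their part in these differences was not tested.

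The same direction was seen nucleus by nucleus after each was thinned to 2000 UMIs, which left 7690 HKO and 11219 WT hepatocyte-like nuclei. A Per1 UMI occurred in 13.3% (12.5 to 14.0) of the HKO and 1.64% (1.41 to 1.89) of the WT nuclei, against 25.5% and 3.22% without thinning. A Per2 UMI occurred in 18.7% and 3.99%, and an Arntl UMI in 6.19% and 14.9%. With Per1, Per2 and Per3 summed, 35.7% of HKO and 8.63% of WT nuclei held at least 1 UMI. The variance of each gene's UMIs over nuclei lay between 0.974 and 1.07 times its mean in both libraries, where counting alone gives 1. At 2000 UMIs a nucleus, the 10 genes averaged only 0.00507 to 0.342 UMIs a nucleus. At such low means this ratio stays near 1 even where nuclei differ, so it cannot tell whether expression was even over nuclei. Clock genes are active in most cell types, so no class here serves as one that should lack them. In endothelial-like nuclei thinned alike, a Per1 UMI occurred in 12.3% and 0.817% of HKO and WT nuclei, with median depths before thinning of 2065 and 3265 UMIs. Thinning kept 1222 of 2349 HKO and 1102 of 1123 WT endothelial-like nuclei, so the HKO share covers only the deeper nuclei.

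Of a list of 23 other genes of the clock pathway, 18 were measured in hepatocyte-like nuclei, 7 were higher in HKO, 1 was lower and 10 lay between. Their median log2 ratio was 0.53, against 0.19 over all 8405 measured genes, of which 3.18% were higher and 4.88% lower. The higher genes included Tef, Ciart, Cipc, Usp2, Noct and Wee1, and the lower gene was Nfil3. Ciart, Usp2 and Wee1 passed the floor only through their HKO values. The largest ratios pointed to HKO. Ciart, a repressor of the clock's activators, stood at 22.1 CPM in HKO and at 1.57 in WT, a log2 ratio of 3.45. Noct, which encodes nocturnin, stood at 350 and 41.0 CPM, a log2 ratio of 3.08. Usp2, a deubiquitinase gene, stood at 60.0 and 6.89 CPM, a log2 ratio of 3.03. The PAR bZIP factors Tef and Hlf, which bind D-boxes such as those printed for Per3, stood at 163 and 143 CPM in HKO and 70.2 and 90.2 CPM in WT. Nfil3, which represses through the same element, stood at 26.4 CPM in HKO and at 57.3 in WT. Dbp, the best known output of the clock in liver, lay under the floor at 12.5 and 5.80 CPM. This list was drawn up with earlier results of these libraries known and is not independent evidence of the members' direction.

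Nuclei of the other classes gave levels close to those of hepatocyte-like nuclei of their own library for most of the 10 genes. Per1 stood between 60.5 and 61.2 CPM in the 4 other classes of HKO and between 5.17 and 12.1 CPM in those of WT. Per2 stood between 83.2 and 97.6 CPM in HKO and between 14.1 and 19.9 CPM in WT. Arntl was at 29.9 CPM in endothelial-like, 39.6 in macrophage-like, 25.0 in stellate-like nuclei and 43.9 in T/NK-like nuclei of HKO. In WT the same classes had Arntl at 73.9, 88.0, 69.8 and 82.7 CPM. For every gene but Npas2, HKO lay on the same side of WT in all 5 classes. The fold was 4.999 to 11.7 higher for Per1, 4.17 to 6.91 for Per2, 2.50 to 4.06 for Per3, 1.85 to 2.33 for Cry1, 1.89 to 2.45 for Cry2 and 1.19 to 1.60 for Nr1d2. It was 1.88 to 2.80 lower for Arntl, 1.57 to 2.87 for Nr1d1 and 1.04 to 1.17 for Clock. Npas2 was lower in HKO in 4 classes, and in T/NK-like nuclei, with 9 UMIs in HKO and 3 in WT, its interval reached from 0.362 to 8.33 times WT.

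Counts past the log2 ratio of 1 were alike between classes. In endothelial-like nuclei 4 of 9 measured clock genes were higher and 1 lower, where 2.65% and 4.5% of all genes were. In macrophage-like nuclei 5 of 9 were higher and 2 lower, against 2.56% and 3.78%. In stellate-like nuclei 5 of 10 were higher and 3 lower, against 2.73% and 4.51%, and Npas2 was measured there through its WT value. In T/NK-like nuclei 3 of 9 were higher and 1 lower, against 7.14% and 7.3%. In endothelial-like, macrophage-like and stellate-like nuclei Per1 passed the floor only through its HKO value. Its WT values there were 5.17, 6.43 and 7.88 CPM. Nr1d1 was among the lower genes in macrophage-like, stellate-like and T/NK-like nuclei, and Arntl in all classes but T/NK-like nuclei, where its log2 ratio was -0.91. The interval of the fold took in 1 in T/NK-like nuclei for Cry1 and Nr1d1, and in stellate-like and T/NK-like nuclei for Clock.

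**Figure D2:**
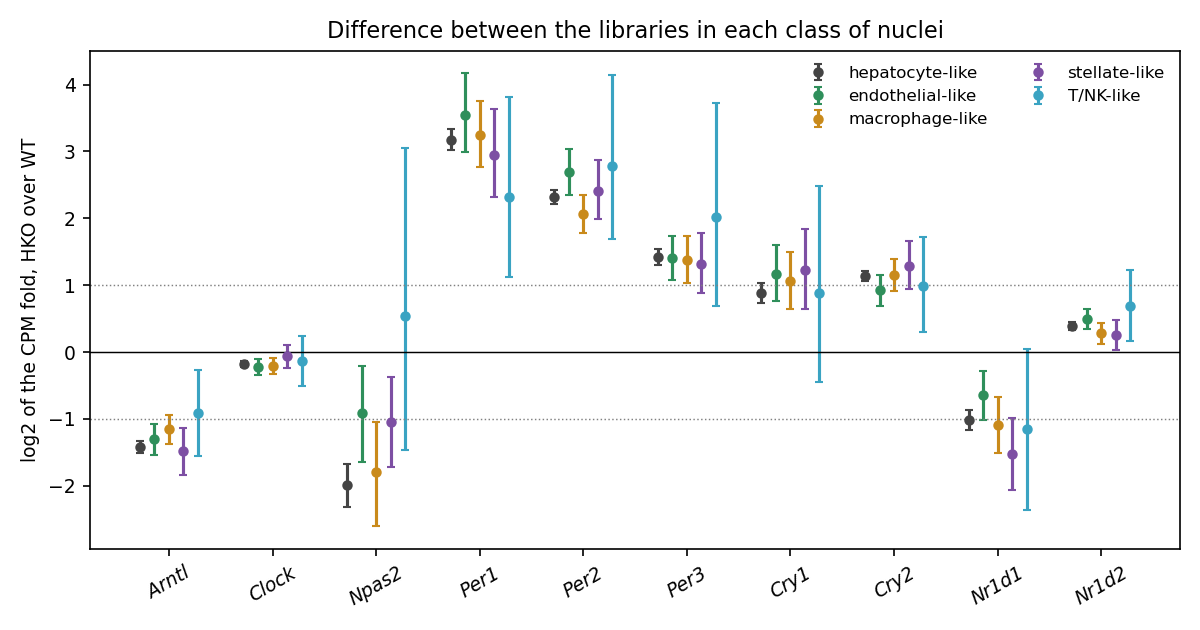
Log2 of the CPM fold of HKO over WT for each clock gene in 5 classes of nuclei, with exact 95% intervals for counting error. Per1, Per2, Per3, Cry1, Cry2 and Nr1d2 lie above the line of equal CPM in every class. Arntl, Clock and Nr1d1 lie below that line in every class.

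These class values have to be read against hepatocyte RNA found in all nuclei. The 15 hepatocyte markers, such as Alb and Apoa1, reached between 0.669 and 1.04 of their hepatocyte-like CPM in the other 4 classes. Their median ratio was 0.891 in HKO and 0.902 in WT endothelial-like nuclei, and 0.808 and 0.871 in stellate-like nuclei. A clock gene was therefore called above the background only where the interval of its class to hepatocyte-like ratio lay wholly over the highest marker ratio of that class. Of 40 pairs of gene and class, 3 were above it in HKO and 4 in WT. No interval lay wholly under the lowest marker ratio, although some ratios did, such as 0.654 for Per1 and 0.724 for Per2 in WT endothelial-like nuclei, where the lowest marker ratio was 0.840. The intervals of all other pairs, those of Per1, Per2, Per3, Cry1, Cry2, Nr1d1 and Nr1d2 among them, met the range of the markers. In those pairs the clock gene's own transcripts in the class and hepatocyte RNA cannot be told apart, and the shared direction over classes is no separate observation of each cell type.

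Npas2 in stellate-like nuclei and Arntl in macrophage-like nuclei were above the background in both libraries. Npas2 stood at 7.81 CPM in HKO (35 UMIs) and at 16.1 CPM in WT (45 UMIs) in stellate-like nuclei, 2.98 times (1.96 to 4.41) and 1.55 times (1.11 to 2.10) the hepatocyte-like level. Stellate markers summed to 7213 and 7089 CPM there. Arntl in macrophage-like nuclei was 1.25 times (1.09 to 1.43) its hepatocyte-like level in HKO and 1.04 times (0.951 to 1.14) in WT, where the highest marker ratio was 0.885. Both calls rest on the setting in WT. Without the 5% of nuclei with the most UMIs, Arntl in WT macrophage-like nuclei was within the background (1.04 times, 0.920 to 1.17, against a highest marker ratio of 0.957). At clustering resolution 1, Npas2 in WT stellate-like nuclei was within it (1.51 times, 1.09 to 2.06, against 1.16). Both HKO calls held under each alternative run. The WT interval of Arntl takes in 1, so its macrophage-like level was not separated from the hepatocyte-like level. The remaining pairs appeared in 1 library each: Clock in endothelial-like and macrophage-like nuclei of WT, at 1.10 and 1.08 times, and Npas2 in T/NK-like nuclei of HKO, on 9 UMIs. Of all measured genes, 20.3% in HKO and 31.3% in WT were above the background in endothelial-like nuclei, and 26.5% and 55.7% in macrophage-like nuclei. For stellate-like nuclei the shares were 25.9% and 22.3%, and for T/NK-like nuclei 11.6% and 10.9%. The counts of clock genes were thus at or under these shares.

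**Figure D3:**
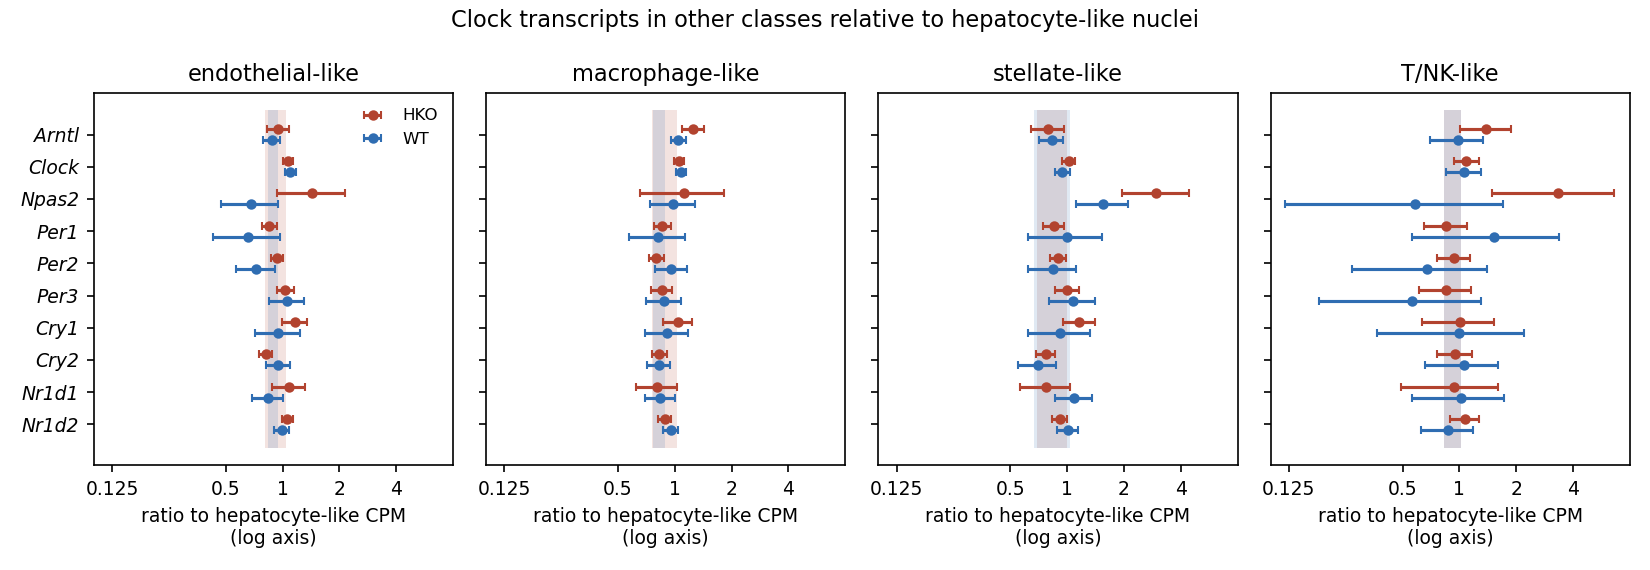
CPM of each clock gene in 4 other classes divided by its CPM in hepatocyte-like nuclei of the same library (log axis), with exact 95% intervals, over a band that spans the hepatocyte markers. Most points meet the band, and Npas2 in stellate-like nuclei lies over it in both libraries, at 2.98 and 1.55.

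Hepatocyte-like nuclei were split in each library into 3 equal parts by a zone score, from markers of the pericentral side, near the central vein, and of the periportal side. Held-out markers followed it: Axin2, a Wnt target, was 4.28-fold and 3.34-fold higher on the pericentral side in HKO and WT, and Hal, a histidine-degrading enzyme, had a pericentral to periportal ratio of 0.235 and 0.233. Of all nuclei, 24.1% in HKO and 23.5% in WT lay within 0.1 score units of a cut, so the parts are ranges and not types. The difference between HKO and WT kept its direction in all 3 zones for each of the 10 genes. Per1 was 8.31-fold to 9.55-fold and Per2 4.43-fold to 5.39-fold higher in HKO, and Arntl 2.25-fold to 3.10-fold and Nr1d1 1.75-fold to 2.38-fold lower. For Clock the interval of the fold took in 1 on the pericentral side (0.923 to 1.04). At the pericentral end of a split into 5 parts Clock read 163 CPM in HKO, against 162 in WT.

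Within a library the zones differed little. Per2 in HKO stood at 89.2 CPM on the pericentral side, 106 in the middle and 117 on the periportal side, 1.31-fold higher periportally (1.22 to 1.42). In WT it stood at 20.1, 19.6 and 22.9 CPM, and its interval took in 1 (0.978 to 1.32). In HKO Clock and Per3 were higher on the pericentral side, by 1.17-fold (1.09 to 1.24) and 1.14-fold (1.02 to 1.28). In WT Arntl, Cry1 and Cry2 were higher on the periportal side, by 1.14-fold, 1.54-fold (1.24 to 1.90) and 1.17-fold. Nr1d1 was 1.17-fold higher on the pericentral side in WT. So 3 genes were separated in HKO and 4 in WT, where 32.5% and 33.4% of all genes were, and 0 were separated the same way in both. Per1 was level over the zones of both libraries, with 71.5, 71.4 and 70.7 CPM in HKO and 7.74, 8.60 and 7.40 CPM in WT.

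With 5 equal parts in place of 3 and the outermost compared, 2 genes, Per2 and Cry2, were higher on the periportal side in both libraries. In that split 4 clock genes were separated in HKO and 7 in WT, and the share over all genes was not counted. From the periportal to the pericentral end, Per2 in HKO read 123, 110, 106, 95.6 and 85.8 CPM, and Cry2 101, 92.6, 92.0, 90.8 and 87.3 CPM. In WT Per2 read 24.1 CPM at the periportal and 19.7 CPM at the pericentral end, and Cry2 48.9 and 39.0 CPM. Arntl went opposite ways, from 30.2 to 36.6 CPM in HKO and from 86.3 to 71.9 CPM in WT. Marker sums of other classes are given for the pericentral, middle and periportal of the 3 parts. In HKO the macrophage list summed to 314, 298 and 279 CPM, the endothelial list to 199, 197 and 192 and the stellate list to 236, 241 and 236. In WT the macrophage list summed to 333, 334 and 306 CPM, the endothelial list to 234, 246 and 230 and the stellate list to 304, 332 and 330. The part of these small sums in the zone values was not tested.

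**Figure D4:**
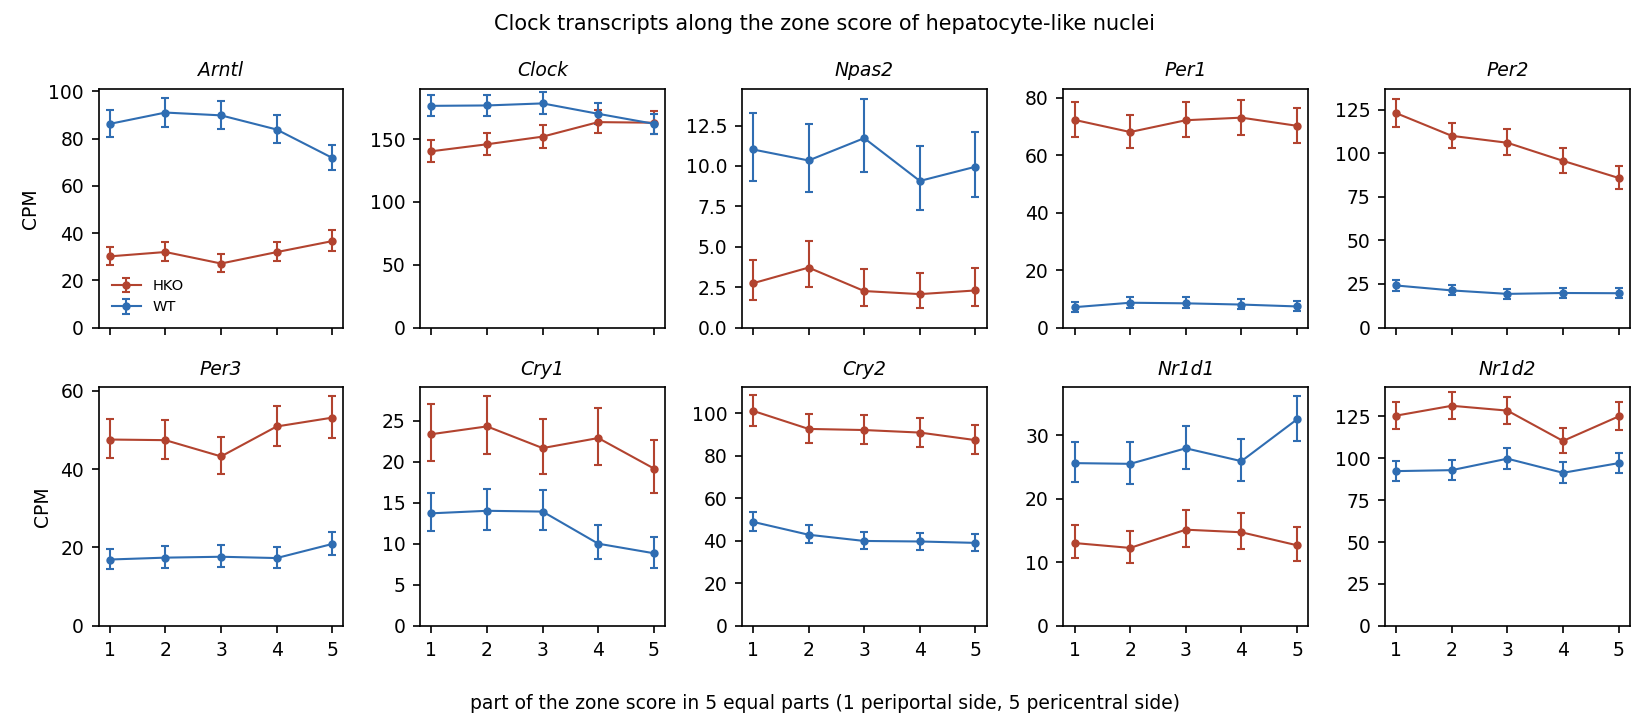
CPM of the clock genes in 5 equal parts of the zone score within hepatocyte-like nuclei of each library, with exact 95% intervals. Per2 in HKO runs from 123 CPM at the periportal end to 85.8 CPM at the pericentral end, a smaller span than the gap to WT.

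At 48 h after PHx some hepatocytes divide, and nuclei were compared by transcripts of a list for G2 phase and mitosis, such as Top2a and Mki67. Nuclei with at least 3 list UMIs after thinning numbered 386 in HKO and 1179 in WT, and those with 0 numbered 5578 and 5732. Arntl was higher in the nuclei with these transcripts in both libraries, at 50.3 against 29.6 CPM in HKO (1.70-fold, 1.35 to 2.12) and 101 against 85.5 CPM in WT (1.18-fold, 1.07 to 1.29). Npas2 was higher too, at 7.35 against 2.56 CPM in HKO (13 UMIs with) and 15.9 against 9.84 CPM in WT (86 UMIs with). Per2 was lower, at 81.9 against 106 CPM in HKO (0.770 times, 0.647 to 0.910) and 15.02 against 21.9 CPM in WT (0.685 times, 0.536 to 0.866). In WT alone the interval also left out 1 for Clock, Per1 and Cry1, which were higher, and for Cry2, which was lower. With a limit of 2 list UMIs in place of 3, the WT fold of Arntl was 1.08 (0.995 to 1.16), and the intervals of Per1 and Cry1 in WT took in 1 as well. Npas2 and Per2 were then the 2 genes separated the same way in both libraries. At the limit of 3, 3 of 10 clock genes in HKO and 7 of 10 in WT were separated, where 34% and 41.2% of all genes were. At the limit of 2 the counts were 3 in HKO and 5 in WT, and the share over all genes was not counted there. Whether the effect differs between the libraries was not tested.

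The difference between HKO and WT held within both sorts of nuclei. Per1 stood at 66.7 CPM in HKO and at 10.8 in WT among nuclei with the G2 and mitosis transcripts, and at 70.3 and 7.63 CPM among those without. Median depths were 3733 UMIs with and 4261 without these transcripts in HKO, and 3820 and 3636.5 in WT. Hepatocyte markers summed to 13484 CPM with and 15344 CPM without in HKO, and to 31234 and 35242 CPM in WT. The endothelial list summed to 201 and 189 CPM in HKO and 215 and 223 CPM in WT, the macrophage list to 289 and 286 and to 304 and 311, and the stellate list to 220 and 231 and to 298 and 313. At least 10 genes of each list had a UMI. In nuclei with no UMI of the endothelial, macrophage and stellate lists, 0 clock genes were separated in either library. That left 23 HKO and 44 WT nuclei with the G2 and mitosis transcripts, and the fold of Arntl was 0.870 (0.1004 to 3.45) in HKO and 1.29 (0.738 to 2.13) in WT. These intervals hold the folds found in all nuclei, so the difference was not detectable at this number of nuclei.

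**Figure D5:**
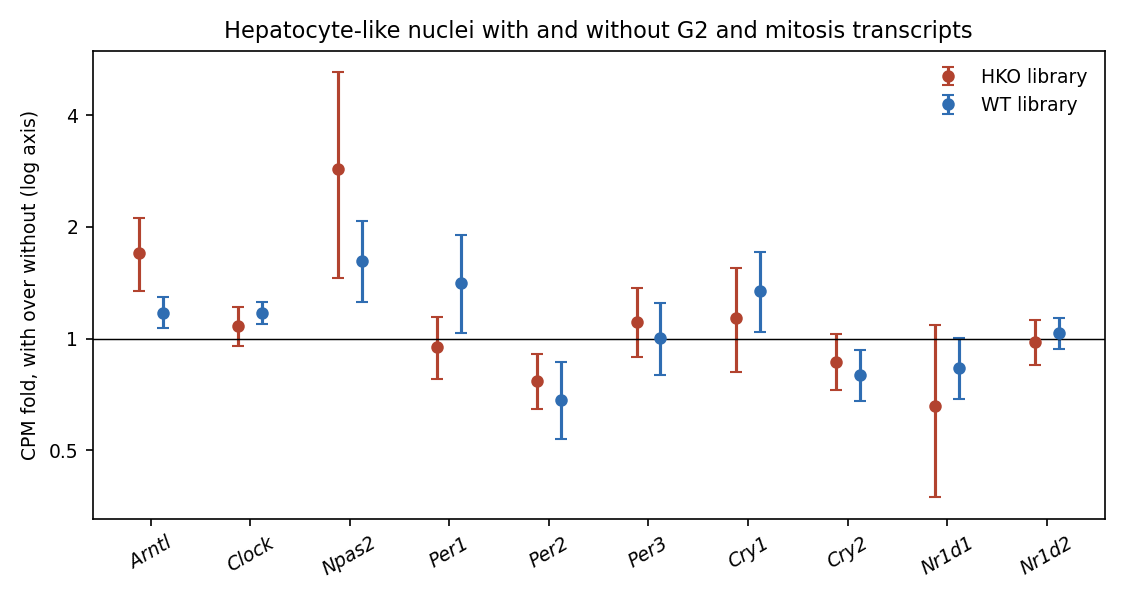
CPM of each clock gene in hepatocyte-like nuclei with 3 or more UMIs of that list for G2 and mitosis divided by its CPM in nuclei with 0 (log axis), by library, with exact 95% intervals. Arntl and Npas2 lie above 1 and Per2 below 1 in both libraries.

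Genes with the most similar profile were sought over 14 points, the classes and hepatocyte zones of both libraries, among 3573 genes of 50 CPM or more. The points share their libraries and their hepatocyte RNA, so the correlations mostly follow the gap between HKO and WT and are given as a description. Lpin1 and Zbtb16 were closest to Per1 (Pearson's r 0.993 for each), Lrrfip2 and Tbc1d8 to Per2 (0.988 each), and Lrp4 and Rere to Per3 (0.982 each). Kcnn2 (0.990) and Arhgef26 (0.989) were closest to Cry2, and Ndufs3 and Selenbp2 to Cry1 (0.974 each). For Arntl the closest were Tmco4 (0.974) and Osgin1 (0.968), for Nr1d1 Dbi and Pgrmc1 (0.972 each), and for Nr1d2 Hnrnph3 (0.974) and Dnmbp (0.968). The likeness was looser for Clock, with Exoc4 (0.879) and Ripk1 (0.869), and for Npas2, with Spred2 (0.888) and Rps18 (0.878).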

How the data were processed

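Liver nuclei were measured by 3' droplet sequencing in 1 HKO and 1 WT library. Per the file headers the deposited counts are raw UMIs per gene and barcode from Cell Ranger 5.0.0. GRCm38, STAR and Seurat 3.2.0 appear in the submitters' processing notes without a stated use. The sources used here do not say whether intronic reads were counted, or on which strand. The labels' protocol describes total RNA although the molecule is nuclear RNA. The 10 genes, the gene lists and the tests were chosen with earlier results of these data known. The 10 genes are named in every class, with the 4 pathway genes of the largest ratio, the 2 closest profiles per gene, and the markers and background genes they are read against. A gene that this rule gave is not reported here.

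Nuclei needed 500 genes or more and a mitochondrial share below 10% of UMIs. Of those kept, 3855 in HKO and 286 in WT had under 2000 UMIs. Scrublet (expected rate 0.1) marked 2 HKO nuclei (0.0134%) and 0 in WT, so it did not work here and doublets were in effect not removed. Both libraries were clustered together on 2000 variable genes, 30 principal components and 15 neighbours (Leiden, resolution 0.5, leidenalg 0.10.2, scanpy 1.11.5, scikit-learn 1.9.0). A cluster was named from at least 3 markers raised within the library holding most of its nuclei. That comparison within a library and the detection limit of 20 CPM were set after the data were seen. B-like (405 HKO and 90 WT nuclei), cholangiocyte-like (122 and 31) and dendritic-like (106 and 14) nuclei fell under the minimum of 100 per library and were not compared.

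UMIs were summed per library and class, scaled to CPM, and read at a floor of a mean of 10 CPM. Poisson, conditional and Clopper-Pearson intervals are exact at 95%. On simulated counts over 8405 genes, all 200 changed genes were recovered (100%), 0% of unchanged genes were called, and 95.3% of intervals held the true fold. The simulation holds counting error only, and every planted change was larger than the log2 size of 1. It does not cover calls of genes near that size, such as Cry2 and Nr1d1. Of the 27998 genes, 27645 matched GENCODE vM21 by identifier, and coordinates come from it. Promoter sequences come from RefSeq. Alternatives covered scaling (TMM in edgeR 4.0.16), depth, weighting, clustering, mitochondrial share, floors, pseudocount, zone parts and list limits. Python 3.11.15, numpy 2.4.6, scipy 1.17.1 and R 4.3.3 were used.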

Additional observations from a re-analysis of the deposited data

How the results depend on the processing

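No paired analysis was possible because each group has 1 library, numbered 1, so the groups share fewer than 2 numbers. No clock gene changed direction in hepatocyte-like nuclei under the alternatives run, where the log2 ratio ranged from 2.95 to 3.18 for Per1, 2.15 to 2.32 for Per2, 1.22 to 1.46 for Per3, 0.93 to 1.20 for Cry2, -1.55 to -1.32 for Arntl and -1.25 to -0.91 for Nr1d1. The count of lower clock genes was 2 in place of 1 with median ratio size factors, TMM factors, nuclei of at least 2000 UMIs, clustering resolution 1 and without the 5% of nuclei with the most UMIs. It was also 2 under alternatives chosen after seeing the data: a floor of 1 CPM and a mitochondrial share of 0.1% to 0.3%. Leaving out cluster 10, rich in mitochondrial transcripts (31 HKO and 499 WT nuclei), was such an alternative and also gave 2. A floor of 50 CPM left 5 clock genes, 2 of them higher, and in the pathway list 4 higher and 0 lower. Over all genes, 454 were higher and 632 lower at a floor of 1 CPM, and 140 and 194 at 50 CPM.

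The calls in other classes depended on the background limit. With the median marker ratio as the limit, 16 pairs of clock gene and class in HKO and 6 in WT were above it. At resolution 1 there were 13 in HKO and 2 in WT, with 5240 HKO and 8955 WT nuclei left as hepatocyte-like, and without the 5% of nuclei with the most UMIs there was 1 in WT (Npas2 in stellate-like nuclei). The share of all genes above the background was not counted under these settings. These counts of pairs are therefore not read as a trait of the clock genes. Between the outermost of 5 zone parts, 7 clock genes were separated in WT and 2 the same way in both libraries, with no share over all genes counted. With at least 2000 UMIs, 1 gene was separated the same way in both. With a mitochondrial share under 0.1%, which left 757 WT nuclei, 0 were separated in WT. With no UMI of the endothelial, macrophage and stellate lists, chosen after seeing the data, 0 clock genes were separated by G2 and mitosis transcripts in HKO, 0 in WT and 0 in both. That setting left 23 HKO and 44 WT nuclei with these transcripts. The alternative that adds unnamed hepatocyte clusters could not be run at resolution 0.5, where no cluster was unnamed. At resolution 1, 2 clusters with hepatocyte markers, led by haemoglobin genes, were unnamed (3448 HKO nuclei, and 3 HKO and 2489 WT nuclei). With these added, chosen after seeing the data, 4 clock genes were higher and 1 lower. Npas2, on 100 HKO UMIs, is the gene most limited by depth.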
